A study of Mus musculus with 2 samples.

Results

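Basement membrane genes were followed in mouse embryonic stem cells (mESCs) with and without Setd2, whose protein is the histone methyltransferase that places trimethylation on lysine 36 of histone H3. The 10 genes, taken by symbol out of 17817 genes in the deposited table, were the laminin chain genes Lama1, Lama5 and Lamc1, the type IV collagen genes Col4a1 and Col4a2, the nidogen genes Nid1 and Nid2, the perlecan gene Hspg2, the matricellular gene Sparc and the collagen chaperone gene Serpinh1. Each had a single row, and all 10 lay above a mean of 1 CPM (a depth-scaled level defined with the values below). The study held 1 wild-type library and 1 library from Setd2 knockout cells, both from mESCs of mixed 129SV/C57BL/6 strain at passages 10 to 12, with no treatment. Cells of both genotypes had grown on feeder cells, were plated on gelatin for 0.5 h to leave feeder cells behind, and were collected 2 days after 1 further passage on gelatin. How Setd2 was disrupted, and whether each genotype was a single clone, are not given in the sources used here.

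A basement membrane is a thin sheet of matrix on which epithelia rest. Laminins are trimers of an alpha, a beta and a gamma chain that assemble on the cell surface through integrins and dystroglycan, and type IV collagen forms a second network that nidogen and perlecan tie to the laminin layer. In the early mouse embryo the primitive endoderm and its parietal derivative are known for heavy secretion of laminin and type IV collagen, while the inner cell mass and stem cells make laminin too. Serpinh1 (also called Hsp47) is the chaperone that binds procollagen in the endoplasmic reticulum, and Sparc is a secreted protein that binds collagen.

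Col4a1 and Col4a2 lie head to head, and the genes that were lower together in the knockout library are introduced by their promoters. RefSeq windows of 250 bases before to 50 bases after the gene start (build GRCm38.p6) were found for 7 of the 10 genes. The 4 shown belong to the type IV collagen pair and to Hspg2 and Serpinh1, the other genes in that table at least 1.5-fold lower, at chr8:11312777-11313076 (minus strand), chr8:11312555-11312854 (plus strand), chr4:137468553-137468852 (plus strand) and chr7:99353190-99353489 (minus strand). Capitals mark GGGCGG (a GC box) and CCAAT, each on either strand (CCGCCC and ATTGG on the other).
Col4a1: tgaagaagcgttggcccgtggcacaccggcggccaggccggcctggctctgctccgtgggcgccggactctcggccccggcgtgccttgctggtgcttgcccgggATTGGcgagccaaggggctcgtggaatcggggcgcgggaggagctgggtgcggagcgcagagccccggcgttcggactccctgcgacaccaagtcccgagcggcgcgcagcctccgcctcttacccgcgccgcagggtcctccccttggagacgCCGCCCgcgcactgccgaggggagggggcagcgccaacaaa
Col4a2: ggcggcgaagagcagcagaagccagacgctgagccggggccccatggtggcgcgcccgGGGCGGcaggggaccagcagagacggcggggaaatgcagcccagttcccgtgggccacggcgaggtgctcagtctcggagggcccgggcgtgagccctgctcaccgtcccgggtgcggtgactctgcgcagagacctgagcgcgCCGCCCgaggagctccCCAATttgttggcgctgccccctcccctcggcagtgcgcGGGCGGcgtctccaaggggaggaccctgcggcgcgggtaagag
Hspg2: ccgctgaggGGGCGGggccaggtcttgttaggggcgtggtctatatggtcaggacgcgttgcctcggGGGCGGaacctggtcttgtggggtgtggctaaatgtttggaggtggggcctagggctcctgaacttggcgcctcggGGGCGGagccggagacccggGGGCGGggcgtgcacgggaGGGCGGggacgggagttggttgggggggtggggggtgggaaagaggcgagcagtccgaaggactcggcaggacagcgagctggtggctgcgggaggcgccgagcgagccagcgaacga
Serpinh1: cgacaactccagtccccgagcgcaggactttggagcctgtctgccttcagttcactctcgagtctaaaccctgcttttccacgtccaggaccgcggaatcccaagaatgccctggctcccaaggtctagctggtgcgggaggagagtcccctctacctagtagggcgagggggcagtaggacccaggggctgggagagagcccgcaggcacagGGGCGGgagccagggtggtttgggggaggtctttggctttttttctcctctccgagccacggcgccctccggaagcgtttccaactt
The Col4a1 and Col4a2 windows overlap by 78 bases on opposite strands, and the start of each transcript lies inside the other by 22 bases. Both hold 1 CCAAT motif, with its first printed base at -145 from the start of Col4a1 and at -32 from that of Col4a2. GC boxes numbered 1 for Col4a1, 3 for Col4a2, 5 for Hspg2 and 1 for Serpinh1. The Col4a1 box, printed from base 10 after its start, and the Col4a2 box from base 8 are the same site. It lies in the overlap and is counted for both windows. GC boxes were not particular to the genes shown, with 4 for Lama5, 1 for Nid1 and 0 for Sparc. Of the 7 windows, 6 held a GC box and 3 a CCAAT motif, against 35.7% and 37.4% of 32851 mouse promoter windows of the same length. TATAAA and GATAA, the core read by GATA factors, were in 0 of the 7, against 13.6% and 25.4% of all windows. The windows were rich in G and C, from 55.3% for Sparc to 74% for Col4a1, beside a median of 52.7% over all windows.

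The deposited values were turned back into read equivalents, units of 76 sequenced bases over a gene, of which the wild-type library held 56129838 and the knockout library 52041677. Levels are given as read equivalents scaled to a library total of 1000000 (CPM), so that 1 CPM stood for 56.1 and 52.0 read equivalents. A fold is log2((knockout + 0.5)/(wild type + 0.5)) on CPM, which draws weak genes towards 0, so that a gene near the floor can be over 2-fold apart in level and not in fold. Counts past 2-fold and 1.5-fold refer to this fold, and percentages of the wild-type level carry a 95% interval for counting error only. With 1 library per genotype there was no replicate check and no test, and every difference below is one between these 2 libraries. Setd2 was measured at 452 CPM in wild-type and 174 CPM in knockout cells, or 38.5% of wild type (37.6 to 39.4%), a total over the gene that does not show which exons were read. The libraries also differed in ways the genotype label does not name. The Y-linked gene Ddx3y was measured at 0.445 CPM in wild-type and 176 CPM in knockout cells, and the median fold of 719 genes on chromosome 8 was -0.35, against 0.05 for all 13523 genes compared. With 1 library of each genotype, these differences and that in Setd2 cannot be told apart. All 15 pluripotency markers listed passed the floor, with Pou5f1, the core pluripotency factor gene, at 558 and 544 CPM. Their levels were not all alike in the libraries. Of the 15, 12 had a fold below 0 and 3 above, with a median of -0.20 and a lowest fold of -2.05.

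Most of the basement membrane genes stood lower in the knockout library, by very unequal amounts. Of the 10, 9 had a fold below 0, whereas 43.6% of all genes compared did. Their median was -0.48. Col4a1 and Col4a2 were lower by 2-fold or more, and 0 of the 10 were higher by as much, beside 2.11% and 1.76% of all genes. At 1.5-fold, Col4a1, Col4a2, Lama1, Serpinh1 and Hspg2 were lower, 5 of 10 beside 6.77% of all genes, and 0 of 10 were higher beside 7.42%. Summed over the 10 genes, the level was 4499 CPM in wild-type and 3645 CPM in knockout cells, 81.0% of the wild-type sum. Without the 2 genes on chromosome 8 the median of the remaining 8 was -0.26, and 0 of these were at least 2-fold lower. The 10 genes were chosen with earlier results of these data known, so these counts are no independent support. In a bulk library, fewer cells of a type and less RNA per cell cannot be told apart.

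**Figure D1:**
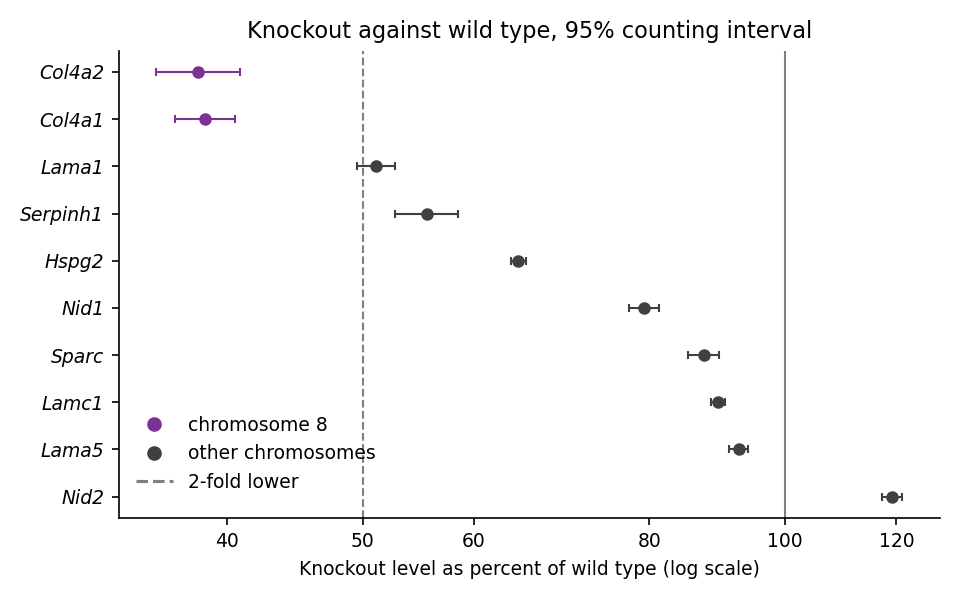
Level of each basement membrane gene in the Setd2 knockout library as percent of the wild-type library (log axis, 1 library each), with 95% counting intervals. Col4a1 and Col4a2 (chromosome 8, purple) lie near 38%, Lama1 reaches the 2-fold line with its interval, and Nid2 alone is above 100%.

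The type IV collagen genes were the lowest of the set. Col4a1 (gene number 12826, chromosome 8, 11198423 to 11312826, minus strand, mm9), a chain gene of the ubiquitous type IV collagen, was measured at 111 CPM in wild-type and 42.9 CPM in knockout cells, or 38.6% of wild type (36.8 to 40.5%). Its partner Col4a2 (gene number 12827, chromosome 8, 11312829 to 11449286, plus strand) was at 55.9 and 21.3 CPM, 38.2% (35.6 to 40.9%). The pair therefore kept its proportion: per kilobase of exon, the Col4a1 level was 1.93 times that of Col4a2 in the wild-type and 1.95 times in the knockout library, for chains that form a trimer with 2 of the former to 1 of the latter. The folds, -1.36 and -1.37, were below those of all but 0.976% and 0.954% of genes compared. Serpinh1 (gene number 12406, chromosome 7, 106493885 to 106501749, minus strand), which encodes the chaperone of their folding, was at 76.2 and 42.4 CPM, or 55.6% of wild type (52.8 to 58.5%).

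Chromosome 8, which carries Col4a1 and Col4a2 and none of the other 8 genes, was lower as a whole. Of its 719 genes compared, 82.2% had a fold below 0, 5.56% were lower by 2-fold or more and 25.5% by 1.5-fold or more. Measured against the chromosome 8 median, Col4a1 and Col4a2 each still stood lower by 2-fold, with folds of -1.02, and 13 of the 719 genes had a lower fold than either. Within 2 Mb of Col4a1, 21 other genes had a median of -0.22, and the 22 around Col4a2 had one of -0.28; each set includes the partner gene. The genes within 500 kb did not move as a block. Irs2, the insulin receptor substrate gene on the Col4a1 side, was measured at 37.6 CPM in wild-type and 43.5 CPM in knockout cells. On the Col4a2 side Rab20, a membrane traffic GTPase gene, was at 0.854 and 1.19 CPM, 140% of wild type with a wide interval (94.0 to 207%). Next came Carkd at 17.9 and 13.3 CPM, the mitochondrial tRNA synthetase gene Cars2 at 32.1 and 20.7 CPM and the chromatin reader gene Ing1 at 89.1 and 76.4 CPM. Ankrd10, 162 kb from Col4a2, was lower than the collagen pair, at 374 and 130 CPM, or 34.7% of wild type. The predicted genes Gm7600 and Gm6524 were at 171 and 267 CPM and at 2.65 and 5.60 CPM, and Arhgef7, a Rac exchange factor gene, at 117 and 87.7 CPM. None of these neighbours, the predicted genes included, was checked for other matching places in the genome.

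**Figure D2:**
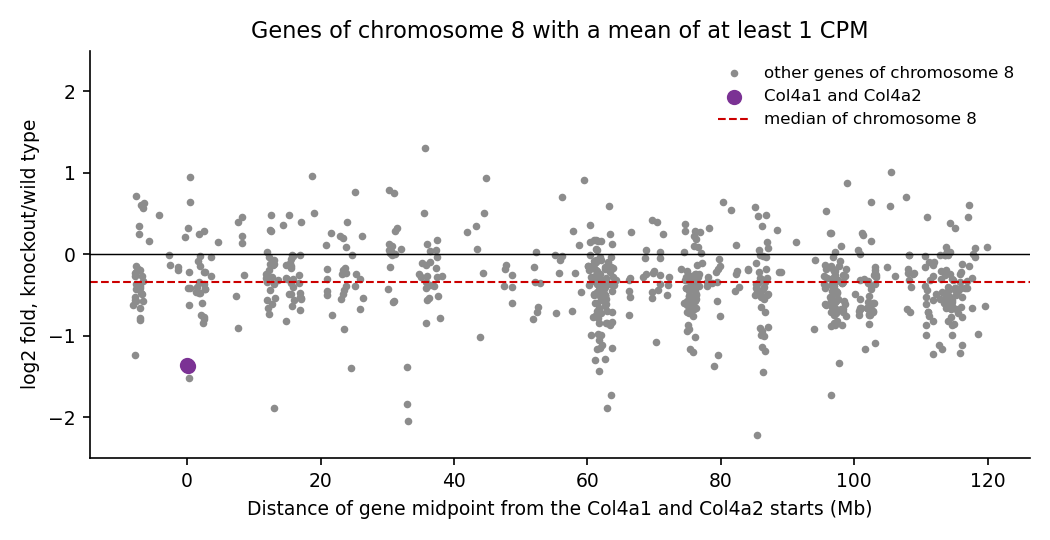
Folds (log2, knockout over wild type) of genes on chromosome 8 with a mean of at least 1 CPM, by distance in Mb from the shared start of Col4a1 and Col4a2, which overlap as 1 purple point. The dashed line is the chromosome 8 median of -0.35, and the pair lies about 1 log2 unit below it.

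Among the laminin chain genes, the alpha chains separated. Lama1 (gene number 16772, chromosome 17, 68046605 to 68171985, plus strand), the alpha chain gene best known from embryonic and endodermal laminin, was measured at 214 CPM in wild-type and 109 CPM in knockout cells, or 51.1% of wild type (49.5 to 52.8%). The interval reaches the 2-fold line, and Lama1 passed that line beside Col4a1 and Col4a2 under 2 of 3 rescalings of the knockout library, with a fold as low as -1.02. The fold of -0.96 became -1.02 relative to the chromosome 17 median, and the 16 genes within 2 Mb had a median of 0.20. Lama5 (gene number 16776, chromosome 2, 179911078 to 179960564, minus strand), an alpha chain gene widely expressed in epithelia and in stem cells, was at 616 and 571 CPM, 92.6% (91.2 to 94.1%). Lamc1 (gene number 226519, chromosome 1, 155066052 to 155179916, minus strand), whose gamma chain is common to most laminins, was at 1161 and 1040 CPM, 89.6% (88.6 to 90.6%). Per kilobase of exon, Lama5 was at 2.40 times the level of Lama1 in the wild-type and at 4.36 times in the knockout library. Of the summed per-kilobase level of the 5 alpha chain genes, Lama1 held 28.2% in the wild-type and 18.0% in the knockout library, and Lama5 67.9% and 78.5%.

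The linkers went apart as well. Nid1 (gene number 18073, chromosome 13, 13529869 to 13604542, plus strand), whose protein bridges laminin and type IV collagen, was measured at 267 CPM in wild-type and 212 CPM in knockout cells, or 79.3% of wild type (77.4 to 81.3%). Its paralog Nid2 (gene number 18074, chromosome 14, 20570479 to 20631009, plus strand) was the only gene of the set above its wild-type level, at 481 and 573 CPM, 119% (117 to 121%). Per kilobase, Nid2 was at 2.23 times the level of Nid1 in the wild-type and at 3.35 times in the knockout library. Hspg2 (gene number 15530, chromosome 4, 137024718 to 137126545, plus strand), the gene of the heparan sulfate proteoglycan perlecan, was at 1281 and 827 CPM, 64.6% (63.8 to 65.3%). In absolute terms Hspg2 showed the largest gap of the 10, 454 CPM. Sparc (gene number 20692, chromosome 11, 55208003 to 55233582, minus strand) was at 235 and 206 CPM, 87.5% (85.3 to 89.8%).

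Counting limits apply to some of these levels. For Nid2, 386 exon bases, 7.90% of its exons, are shared with 2700060E02Rik on the other strand, a gene at 16.0 and 17.2 CPM, and whether strand was used in counting was not stated in the sources used here. Of 20 windows of 76 bases taken from the exons of each gene, 10% for Nid1 and 5% for Sparc had another place in the genome or could not be placed, and 0% for each of the other 8.

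Ordered by level per kilobase of exon, Lamc1 came first in both libraries, at 140 CPM per kb in the wild-type and 126 in the knockout library. Nid2 followed at 98.5 and 117 CPM per kb. Hspg2 (89.2 and 57.6) and Sparc (69.9 and 61.2) changed places between the libraries, but not with the length of the longest coding transcript, where Sparc (102 and 89.5) was above Hspg2 (90.3 and 58.3) in both. Lama5 was at 54.1 and 50.1, Nid1 at 44.1 and 35.0 and Serpinh1 at 31.3 and 17.4 CPM per kb. The lower end, Lama1 at 22.5 and 11.5, Col4a1 at 16.3 and 6.29 and Col4a2 at 8.44 and 3.22 CPM per kb, held its order. The 4 genes with the lowest wild-type level per length, Col4a2, Col4a1, Lama1 and Serpinh1, were also the 4 with the lowest knockout percentages, in the same order. Between Col4a2 (35.6 to 40.9%) and Col4a1 (36.8 to 40.5%) the intervals overlap, so the order of these percentages is not resolved. Without replicates, the spread between neighbours in this order is unknown.

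**Figure D3:**
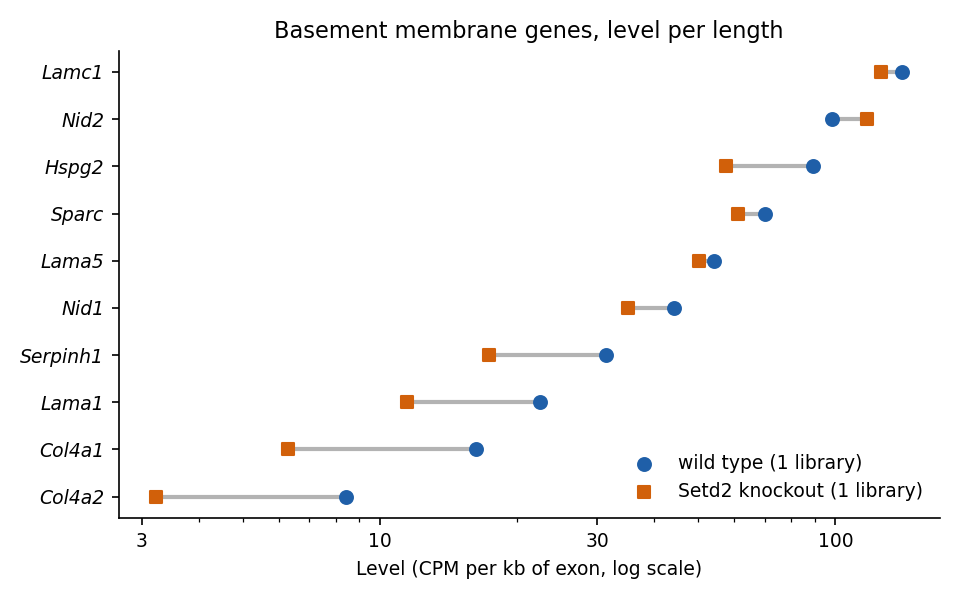
Level of each gene in CPM per kilobase of exon (log axis) in the wild-type (blue circles) and Setd2 knockout library (orange squares), ordered by the wild-type level, 1 library each. Lamc1 is highest in both. The gaps are widest at the bottom, for Serpinh1, Lama1, Col4a1 and Col4a2, followed by that of Hspg2 near the top.

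Among the other laminin and type IV collagen chains, Lama3 stood lower to a like degree, Lamb1 was close and several minor chains stood higher. Of 11 such genes measured, 9 passed the floor, 2 of them only by their knockout level, and by the fold on CPM + 0.5, 1 of the 9 was lower and 2 were higher by 2-fold or more. By the ratio of levels, 4 were higher by as much. The median fold of the 9 was 0.75, but that of the 7 above 1 CPM in both libraries was 0.05, the same as for all genes. Lamb1, the main beta chain gene, was measured at 390 CPM in wild-type and 405 CPM in knockout cells, or 104% of wild type (102 to 106%), and Lamb2 at 57.3 and 46.5 CPM. Lama3, an epithelial alpha chain gene, was at 26.4 and 10.5 CPM, 39.7% (35.9 to 43.8%). Lamb3, an epithelial beta chain gene, stood the other way, at 2.77 and 7.31 CPM, 264% (218 to 319%). Lama4, an alpha chain gene of vessels and muscle, was at 5.17 and 12.5 CPM, 242% (211 to 279%).

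Apart from Col4a6, the rest of this family was named after its values were seen. The X-linked chain genes Col4a5 and Col4a6, head to head like the Col4a1 pair, were at 3.70 and 7.05 CPM, or 191% of wild type (160 to 227%), and at 0.781 and 1.94 CPM, 249% (172 to 361%). Lamc3 was at 0.718 and 1.55 CPM, and, as for Col4a6, only its knockout level lay above the floor. Lama2 was at 1.74 and 1.59 CPM, while Col4a3 and Col4a4 stayed under 0.2 CPM in both libraries. Col4a1 and Col4a2 made up most of the type IV collagen level. The summed per-kilobase level of the 6 type IV collagen genes was 25.4 in the wild-type and 10.8 in the knockout library, and the share of Col4a5 in it 2.17% and 9.68%. Summed per-kilobase levels were 79.7 and 63.8 for alpha and 50.1 and 50.8 for beta laminin chains, so the beta chains were close in sum where the alpha chains were lower.

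**Figure D4:**
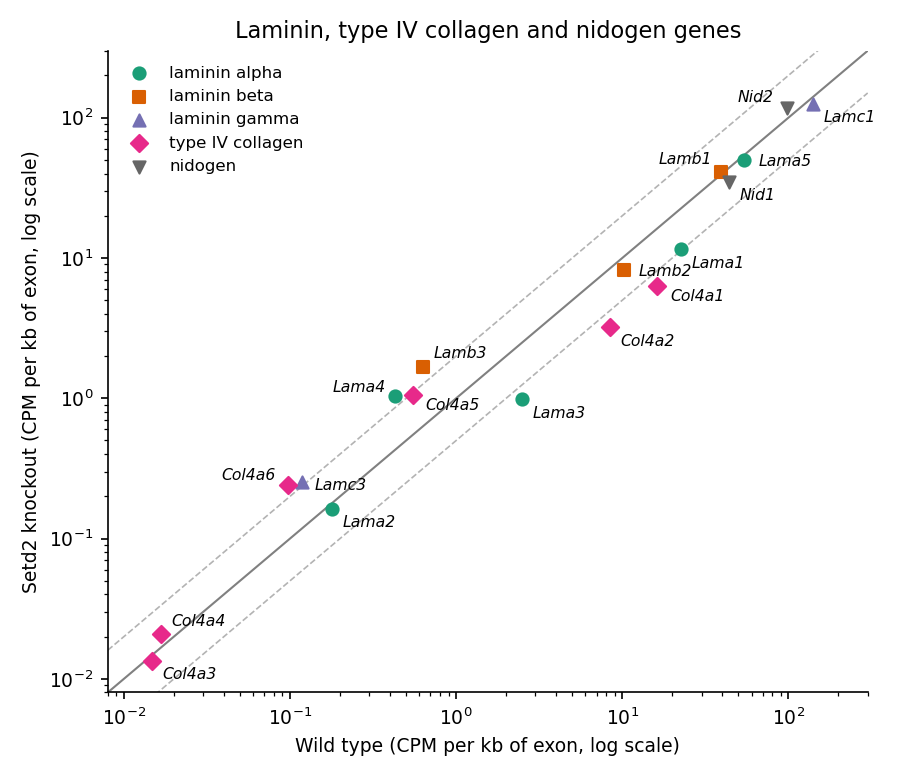
Level per kilobase of exon (CPM per kb, log axes) of laminin, type IV collagen and nidogen genes in the wild-type (horizontal) and Setd2 knockout library (vertical); solid line, equal levels, dashed lines, 2-fold apart. Col4a1, Col4a2 and Lama3 lie below the lower dashed line with Lama1 beside it, and Lamb3, Lama4, Col4a6 and Lamc3 above the upper one by their ratio of levels.

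Other basement membrane components were mixed. Of 21 measured, 19 passed the floor, and by the fold on CPM + 0.5, 1 was lower and 1 higher by 2-fold or more, with a median of -0.22. By the ratio of levels, 2 were higher by as much, Fras1 and Egfl6. Ntn1, a laminin-related guidance gene, was measured at 65.2 CPM in wild-type and 29.6 CPM in knockout cells, or 45.3% of wild type (42.7 to 48.1%), and the elastic fibre gene Efemp2 at 5.33 and 2.83 CPM. Fras1, a gene of the complex that anchors embryonic epidermis, was at 4.31 and 13.0 CPM, 303% (261 to 352%), and Egfl6 at 2.04 and 4.53 CPM.

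The machinery that modifies and exports collagen was not lower as a list beside Serpinh1. Of 28 genes measured, 26 passed the floor, and the median was 0.11, beside 0.05 for all genes compared. By the fold on CPM + 0.5, 0 were 2-fold apart, near the shares of all genes, 2.11% lower and 1.76% higher. Plod1, a collagen lysyl hydroxylase gene, came nearest to Serpinh1, measured at 76.9 CPM in wild-type and 43.0 CPM in knockout cells, or 55.9% of wild type (53.1 to 58.8%). Lox, which crosslinks collagen, was at 26.3 and 14.7 CPM, 55.9% (51.2 to 61.0%). At the other end stood the lysyl oxidase paralog gene Loxl2, at 33.1 and 48.9 CPM, and the prolyl hydroxylase gene Leprel1, at 0.882 and 1.92 CPM, 218% of wild type (152 to 309%) by level and over the floor only by its knockout level. P4hb, the beta subunit of prolyl hydroxylase, was at 499 and 494 CPM.

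Receptor genes had a median fold near 0. Of 25 measured, 23 passed the floor, and their median was -0.03, with folds from -0.68 to 0.55. That 0 were 2-fold apart is near the shares of all genes, 2.11% lower and 1.76% higher. The laminin receptor genes Itga6 (364 and 369 CPM), Itgb1 (402 and 426 CPM) and Dag1 (435 and 399 CPM) all lay within 10% of their wild-type levels. Itga9, an integrin gene, was at 35.9 and 22.3 CPM, 61.9% (57.5 to 66.6%). The syndecan gene Sdc3, the collagen receptor gene Ddr2 and the sarcoglycan gene Sgce were at 13.2 and 9.27, 4.71 and 3.35 and 2.82 and 4.38 CPM.

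Markers of endoderm and of fibroblasts were read beside these genes, since both cell types make basement membrane components. Like the 10 genes and the other lists, the endoderm list was chosen with an earlier reading of these libraries known and is no independent support. Of its 20 genes measured, 14 passed the floor, but 5 of these only by their wild-type level, which a gene can do only by being lower in the knockout library. Among the 9 above 1 CPM in both libraries, 4 were lower and 0 higher by 2-fold or more and the median fold was -0.45, against 6, 0 and -0.71 over the 14. Gata6, the transcription factor gene that defines primitive endoderm, was measured at 6.00 CPM in wild-type and 0.953 CPM in knockout cells, or 15.9% of wild type (11.6 to 21.6%), and is 1 of the 5. Pdgfra was at 17.9 and 6.00 CPM, the thrombomodulin gene Thbd, a parietal endoderm marker, at 19.2 and 6.94 CPM, the adaptor gene Dab2 at 25.3 and 12.2 CPM and the endocytic receptor gene Cubn at 60.9 and 4.50 CPM. Gata4 was at 8.80 and 7.21 CPM and Sox17 at 0.588 and 0.287 CPM. Afp was listed at 0 in both libraries, and the summed list was at 791 and 928 CPM, higher in the knockout library through Apoe, named after its values were seen, at 326 and 577 CPM.

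Of 29 fibroblast genes measured, 23 passed the floor, 2 were lower and 0 higher by 2-fold or more, with a median fold of -0.19 and sums of 845 and 681 CPM. At 1.5-fold the list was evenly split, with 5 lower and 5 higher. Col1a1, a type I collagen gene of feeder fibroblasts, was at 45.0 and 31.3 CPM, Col1a2 at 14.4 and 9.08 CPM and Col3a1 at 2.45 and 1.48 CPM. Thbs1, at 368 and 210 CPM, held the largest share of that sum. Ccl2 was at 6.48 and 2.41 CPM and Prrx1 at 5.97 and 2.70 CPM, while the calponin gene Cnn1 was at 4.55 and 7.69 CPM. Lum, a matrix gene of mature fibroblasts named after its values were seen, was at 0.0713 CPM in wild-type cells and listed at 0 in knockout cells. Among other collagen genes of the list, named after their values were seen, Col5a2 was at 60.5%, Col5a1 at 95.5%, Col6a1 at 115% and Col6a2 at 119% of wild type. The fibroblast markers were thus mixed, with Col1a1, Col1a2 and Col3a1 lower in the same library as Col4a1, Col4a2 and Lama1. Of the 14 endoderm genes over the floor, 12 had a fold below 0, by unequal amounts, and 2 above. Of all genes compared, 43.6% had a fold below 0. For 5 of the 14, Gata6 among them, the direction was fixed in advance, since only their wild-type level passed the floor. Gata6, Pdgfra, Thbd, Dab2 and Cubn were lower by 2-fold or more. Gata4 was at 81.9%, Lrp2 at 97.5%, Fst at 127% and Apoe at 177% of wild type, with Lrp2 and Fst named after their values were seen. The part of either cell type in the values of the basement membrane genes was not tested.

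**Figure D5:**
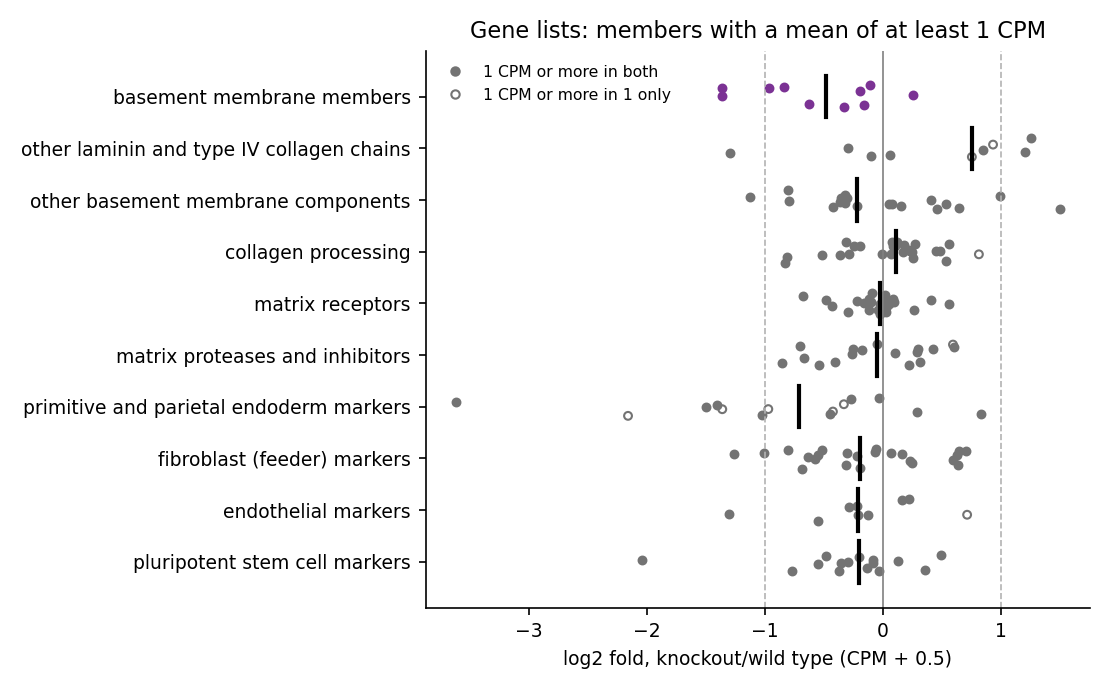
Folds (log2 on CPM + 0.5, knockout over wild type) of single genes in each list with a mean of at least 1 CPM; open circles pass 1 CPM in 1 library only, black bars are medians over all points shown, dashed lines 2-fold. The basement membrane genes, all filled, have a median of -0.48, while 5 of 14 endoderm markers and 2 of 9 other laminin and type IV collagen chains are open.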

How the data were processed

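RNA from 1 wild-type and 1 Setd2 knockout mESC culture was sequenced. The submitters' processing notes list TopHat 1.0.13, CASAVA 1.6.0 and mm9 without saying what each did; the treatment of multiply aligned reads and of strand was not stated in the sources used here. The deposited values are on a log2 scale: the file headers name RPKM, but 2 to the power of a value, less 1, was a whole number of bases out of 76 (within 0.05 of a base) for 85.9% and 85.7% of results between 0 and 200, with no scaling by length seen. No source used here gives the authors' step to these values.

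These read equivalents were scaled to CPM over 17827 rows; of several rows of a symbol the highest was kept. The pseudocount was 0.5 CPM, the floor a mean of 1 CPM and the threshold 2-fold. Intervals are exact conditional binomial 95% intervals on rounded read equivalents; reads are not independent molecules, so they cover counting error only. Exon lengths are unions of GENCODE exons on NCBIM37, the assembly of mm9; 94.6% of rows overlapped a model of their symbol. Windows were aligned with minimap2 2.31, allowing 2 mismatches. Functions were tested on simulated data (Python 3.11.15, scipy 1.17.1).

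The 10 genes and all 10 lists were chosen with earlier results of these data known. Named were the 10 genes, up to 4 genes of each other list with the largest absolute fold, 16 reference genes and the genes within 500 kb of Col4a1 and Col4a2. Other lists were the remaining chains, other basement membrane components, collagen processing, receptors, proteases, and endoderm, fibroblast, endothelial and pluripotency markers. Some genes of these lists are not reported here and were left out of the counts. Alternatives changed the pseudocount, floor, threshold, scaling, rows per symbol and the chromosome reference.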

Additional observations from a re-analysis of the deposited data

How the results depend on the processing

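No paired analysis was possible because each genotype has 1 library, and leaving 1 out would end the comparison. Under 7 alternatives per gene (70 values), all on the same 2 libraries, 0 of the folds of the 10 basement membrane genes changed sign. The rescalings lowered the folds slightly, so the 9 folds below 0 could not change sign by them. The count of 0 is therefore no check on the spread between cultures. The fold of Col4a1 ran from -1.42 to -1.02, that of Col4a2 from -1.43 to -1.02, that of Lama1 from -1.02 to -0.96 and that of Nid2 from 0.19 to 0.25. The median of the 10 genes, -0.48, was -0.54 with the knockout library rescaled to a median log2 ratio of 0, -0.54 with a trimmed mean of log ratios, -0.52 with the upper quartile, -0.56 relative to the own chromosome and -0.26 without Col4a1 and Col4a2, a setting chosen after seeing the data. The rescalings moved the median of all genes by -0.05, -0.06 and -0.03. The 2 genes at least 2-fold lower became 5 at 1.5-fold, 0 at 3-fold and 0 without the genes on chromosome 8. Over all genes, 916 were lower and 1004 higher at 1.5-fold, 93 and 62 at 3-fold, against 285 and 238 at 2-fold, and 108 were at least 2-fold higher with a floor of 5 CPM; the thresholds and the fewer genes tested account for these. Counting genes above 1 CPM in both libraries, or the ratio of levels in place of the fold, both added after seeing the data, changed values of the other lists as given beside them. With the length of the longest coding transcript, an alternative added after seeing the data, 3 of 20 ranks per length moved, all in the wild-type library: Sparc to rank 2, Nid2 to 3 and Hspg2 to 4. Counting error was small at these depths, since the lowest level of a member was 21.3 CPM, and the spread between cultures is unknown.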

Other observations

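Genes that remodel matrix were mixed. Of 17 proteases and inhibitors measured, all passed the floor and 0 were 2-fold apart, near the shares of all genes, 2.11% lower and 1.76% higher. The median fold was -0.05, or -0.12 over the 16 above 1 CPM in both libraries. The aggrecanase gene Adamts4 was at 7.13 and 3.72 CPM, the membrane metalloproteinase gene Mmp15, on chromosome 8, at 16.3 and 9.76 CPM and the inhibitor gene Timp1 at 12.9 and 7.92 CPM. Adamts1, a second aggrecanase gene, was at 3.96 and 6.24 CPM, 158% of wild type (133 to 188%).

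Endothelial markers, from cells that also rest on a basement membrane, had a median of -0.22 over 9 of 12 genes measured. Over the 8 above 1 CPM in both libraries the median was also -0.22. Nos3 was at 10.2 and 3.83 CPM, Esam at 5.15 and 3.36 CPM, Tek at 36.9 and 30.1 CPM and Erg at 0.719 and 1.5 CPM. Erg was over the floor only by its knockout level, and was over 2-fold higher by the ratio of levels but not by the fold. Pluripotency genes had a median of -0.20 over 15, with 1 at least 2-fold lower. This was Zfp42, on chromosome 8, at 283 and 68.1 CPM, with 55% of its windows shared with other places. Utf1 was at 159 and 92.7 CPM, Tcl1 at 22.3 and 15.0 CPM and Nanog at 221 and 310 CPM, with 30% of its windows shared.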
